A study of Mus musculus with 2 samples.

Results

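The immediate early transcription factors examined here are 10 genes of the AP-1, EGR and IER groups, Fos, Fosb, Jun, Junb, Jund, Egr1, Egr2, Egr3, Ier2 and Ier3. They were taken by name, as every probe set with 1 of these symbols and no other in the platform annotation, which gave 12 of the 20380 probe sets with a single symbol and 10 of 12393 genes. Their RNA was measured in splenocytes of male DBA/1 mice, an inbred strain, aged 6 to 8 weeks, harvested on day 10 after an intradermal immunization. The GPI-immunized mice had received 300 μg of recombinant human glucose-6-phosphate isomerase fused to glutathione S-transferase (GPI-GST) and the control mice 100 μg of GST, both in complete Freund's adjuvant, so that adjuvant and GST were common to both groups and the mass of protein was not. Spleens of 3 mice per group were harvested, each group was read on 1 Affymetrix mouse GeneChip, and whether the RNA of the 3 spleens was pooled is stated by none of the sources used here.

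With 1 array per group there was no replicate, no test was possible, and each ratio describes these 2 arrays. A probe set is a group of short oligonucleotides that reads 1 transcript or several. Its brightness was deposited as 1 signal, an intensity on a linear scale. The ratio was the GPI-immunized signal over the control signal without further scaling. A gene was read from its brightest probe set, and its signal was called sufficient where the higher of the 2 arrays reached 50.2, the 50th percentile of all signals. Probe sets against bacterial transcripts (15 of them), a gauge of background, reached 14.1 at most. Probe sets of the same gene differed in their log2 ratio with an SD of 0.26 (2538 pairs), a factor of 1.20. This yardstick lies within the 2 hybridizations and holds no variation between mice. The median log2 ratio over the 6961 genes with sufficient signal was 0.056 (SD across genes 0.40). B cell and T cell markers gave signals up to 3044.0 (Cd79b) and 475.1 (Cd3d) on the control array, so that the defining lymphocyte genes of spleen were present. Signals of whole splenocyte RNA cannot tell fewer cells of a type from less RNA per cell.

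Immediate early genes are transcribed within minutes of a stimulus, without a need for new protein, and many of their mRNAs are short-lived. Fos and Jun proteins pair through leucine zippers into the AP-1 dimer, EGR proteins bind GC-rich DNA through zinc fingers, and both groups pass signals from antigen receptors, cytokines and growth factors to later genes. In the spleen they are known from activated lymphocytes and myeloid cells, and also from cells stressed during isolation. Although grouped here by their early induction, IER3 is not a DNA-binding factor but a small protein that limits or promotes apoptosis depending on the setting.

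The promoters of 4 of the genes are shown because they belong to genes of unlike ratio. Ier3 had the highest ratio, and the Jun family held 1 gene that was higher, 1 that was near a ratio of 1 and 1 that was lower after GPI immunization. Each line gives the 250 bases before the RefSeq start, 5′ to 3′ on the strand of the gene, in build GRCm38.p6. Ier3 lies at chr17:35821463-35821712 on the plus strand, Junb at chr8:84978749-84978998 on the minus strand, Jun at chr4:95052223-95052472 on the minus strand and Jund at chr8:70697489-70697738 on the plus strand. Capitals mark matches, on either strand, to the motifs described after the sequences.
Ier3: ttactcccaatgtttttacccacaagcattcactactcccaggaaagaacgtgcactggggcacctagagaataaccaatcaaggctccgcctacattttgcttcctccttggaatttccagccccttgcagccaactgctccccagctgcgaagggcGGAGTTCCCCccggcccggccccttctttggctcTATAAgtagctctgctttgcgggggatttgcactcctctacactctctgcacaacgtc
Junb: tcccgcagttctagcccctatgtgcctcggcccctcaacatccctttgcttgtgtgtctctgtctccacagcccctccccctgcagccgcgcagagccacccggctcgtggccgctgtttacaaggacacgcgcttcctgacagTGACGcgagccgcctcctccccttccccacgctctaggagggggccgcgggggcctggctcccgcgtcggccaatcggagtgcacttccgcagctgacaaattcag
Jun: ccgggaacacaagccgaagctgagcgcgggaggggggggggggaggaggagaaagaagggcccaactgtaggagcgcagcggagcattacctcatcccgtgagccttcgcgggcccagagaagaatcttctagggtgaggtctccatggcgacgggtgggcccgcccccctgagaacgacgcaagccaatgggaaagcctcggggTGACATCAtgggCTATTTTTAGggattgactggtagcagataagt
Jund: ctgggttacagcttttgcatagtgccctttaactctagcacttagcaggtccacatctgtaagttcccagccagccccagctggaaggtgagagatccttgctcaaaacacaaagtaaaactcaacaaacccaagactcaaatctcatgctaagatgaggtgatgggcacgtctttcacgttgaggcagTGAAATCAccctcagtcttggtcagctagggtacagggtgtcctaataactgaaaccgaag

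The motifs searched on both strands were the AP-1 site TGANTCA, the longer AP-1 or CRE-like site TGANNTCA, the short CRE site TGACG, the EGR site GCGNGGGCG, the TATA box TATAA, and the CArG box (bound by serum response factor), the NF-κB consensus and the MEF2 consensus. The short CRE site can lie within TGANNTCA, and no matches of these 2 motifs overlapped in the windows of the 7 genes. Windows were searched for 7 of the 10 genes, those of Fos, Fosb, Jun, Junb, Jund, Egr2 (5 windows) and Ier3. Any windows of the 10 genes on 1 chromosome were left out, while the shares over all windows kept that chromosome. Egr1, Egr3 and Ier2 were not searched, so nothing is said of motifs in their promoters. The Ier3 window held an NF-κB consensus match on the minus strand and a TATA box. Such an NF-κB match was in the windows of 3 of the 7 genes, Ier3, Fos and Fosb, and in 3.90% of all 32851 windows. The Jun window held TGACATCA, a match to TGANNTCA, followed by a MEF2 match, CTATTTTTAG. The Jund window also matched TGANNTCA, as TGAAATCA, and 11.9% of all windows matched it. Short CRE sites were in the windows of Fos, Fosb, Junb and Egr2 (17.8% of all windows), and TATA boxes in those of Fos, Egr2 and Ier3 (22.8%). A CArG box was found in the windows of 1 gene, Egr2, in 2 forms, CCATATATGG and CCTTTTTTGG, and in 1.47% of all windows. Each of the 7 genes was counted once for a match in any of its windows, whereas the percentages count windows singly. An EGR site was in that of Fosb (4.70% of all windows) and a MEF2 match in that of Jun (2.92%). The AP-1 site TGANTCA was in 0 of the 7 and in 6.75% of all windows. These matches describe letters in the windows and not binding. Each window held the 250 bases before a start, and sequence further upstream was not searched.

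Of the 10 genes, 9 had sufficient signal. After GPI immunization Ier3 was higher by at least 2-fold, 0 genes were at least 2-fold lower, and 8 lay between. The same rule called 2.23% of all 6961 genes higher and 0.445% lower. Ratios above 1 were found for 5 of the 9 genes, against 57.5% of all genes. The median log2 ratio of the 9 genes was 0.013, and their ratios ran from 0.661 (Egr1) to 2.84 (Ier3), so the genes did not move together. The SD of their log2 ratios was 0.65, and 0.41 over the 8 without Ier3, next to 0.40 over all genes with sufficient signal.

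**Figure D1:**
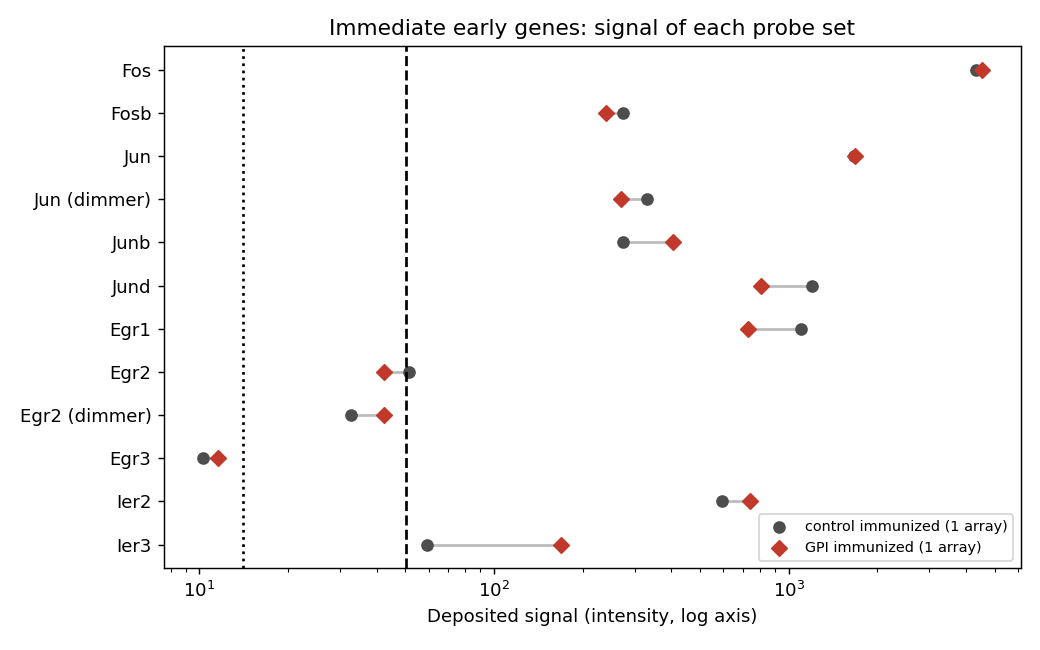
Deposited signal (horizontal log axis, intensity) of each of the 12 probe sets on the control array (circles) and the GPI-immunized array (diamonds), 1 array per group, with the dashed line at 50.2 (sufficient signal) and the dotted line at 14.1 (highest bacterial control). The widest gap is that of Ier3, from 59.2 to 168.4, Jund and Egr1 lie lower on the GPI-immunized array, and Egr3 stays under the dotted line on both.

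The AP-1 genes went in different directions. Fos encodes the partner that cannot bind DNA alone and needs a Jun protein. The signal went from 4331.7 in control to 4513.1 in GPI-immunized splenocytes, a ratio of 1.04, which became 0.979 once both arrays had been divided by their medians. The probe set of Fos was brighter than 99.1% of probe sets on either array. Signals on these arrays ended at 9642.3 and 9762.3.

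Fosb, a close relative of Fos, read 274.8 in control and 240.6 in GPI-immunized splenocytes, a ratio of 0.876. As deposited, its log2 difference of -0.19 was smaller than the spread between probe sets of 1 gene.

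Jun encodes the founding AP-1 subunit, which can bind DNA as a homodimer. Its brighter probe set had signals of 1660.3 and 1675.9 (control and GPI-immunized arrays), a ratio of 1.01, which was below 1 under all 3 other scalings (0.948 to 0.974). Its dimmer probe set had signals of 330.4 and 270.2, a ratio of 0.818. The pair of probe sets thus placed Jun level or slightly lower, and no direction is given for it.

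Junb can oppose Jun at some promoters and is used in T helper cells and myeloid cells. The signal went from 274.5 in control to 403.6 in GPI-immunized splenocytes, a ratio of 1.47. It was the highest ratio among the AP-1 genes, above that of 92.0% of all genes with sufficient signal, and it stayed below 2-fold. The log2 ratio was 0.56 as deposited and 0.47 to 0.49 under the 3 other scalings, against a spread of 0.26 between probe sets.

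Jund, the Jun gene that is expressed most evenly across tissues and least dependent on a stimulus, was lower. The signal went from 1195.4 in control to 806.3 in GPI-immunized splenocytes, a ratio of 0.675 (log2 ratio -0.57). Only 3.5% of genes with sufficient signal had a lower ratio. Junb and Jund lay on opposite sides of a ratio of 1 as deposited and under the 3 other scalings.

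Of the EGR genes with sufficient signal, Egr1 alone had a ratio below 1 that was not fixed by the signal limit. Egr1, a zinc-finger factor induced by antigen receptor and growth factor signals, read 1103.8 in control and 729.5 in GPI-immunized splenocytes, a ratio of 0.661 (log2 ratio -0.60). This was the lowest ratio of the 9 genes, and 3.1% of all genes with sufficient signal were lower. Genes with sufficient signal were also split by mean signal into 3 classes. Among the 2320 genes of the brightest class, 44 had a ratio at least as low as that of Egr1 and 53 at least as low as that of Jund.

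Egr2, which with Egr3 restrains T cell activation, had a pair of probe sets that disagreed. The brighter one had signals of 51.6 and 42.2 (ratio 0.818) and the other 32.7 and 42.4 (ratio 1.30), control array first. Only the control signal of the brighter probe set exceeded the limit of 50.2, which fixed its ratio below 1. The mean over both probe sets gave a ratio of 1.03, so no direction is given for Egr2. Probe sets of 1 gene lay on opposite sides of a ratio of 1 in 32.3% of the 2538 pairs.

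Egr3 had signals of 10.3 and 11.6. Both lay below 14.1, the brightest bacterial control of either array, and no ratio is given. On its own array the GPI-immunized signal lay above the bacterial controls, which reached 6.3 there and 14.1 on the control array.

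Both IER genes had ratios above 1. Ier2, a nuclear protein of uncertain biochemical role, read 593.7 in control and 738.3 in GPI-immunized splenocytes, a ratio of 1.24. This log2 difference was 0.31 as deposited and 0.22 to 0.25 under the 3 other scalings, where it was smaller than the spread of 0.26 between probe sets of 1 gene.

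Ier3 read 59.2 in control and 168.4 in GPI-immunized splenocytes, a ratio of 2.84 (log2 ratio 1.51). Both signals were above the highest bacterial control signal of 14.1. Its ratio ranked 44 of 6961 genes, and in the dimmest class, where ratios spread most, 22 of 2320 genes were at least as high. The central 95% of ratios in this class ran from 0.581 to 2.15, and in the brightest class from 0.683 to 1.73. Ier3 was read by 1 probe set, of the kind designed to match several transcripts of a gene, so that no other probe set could be set beside it.

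**Figure D2:**
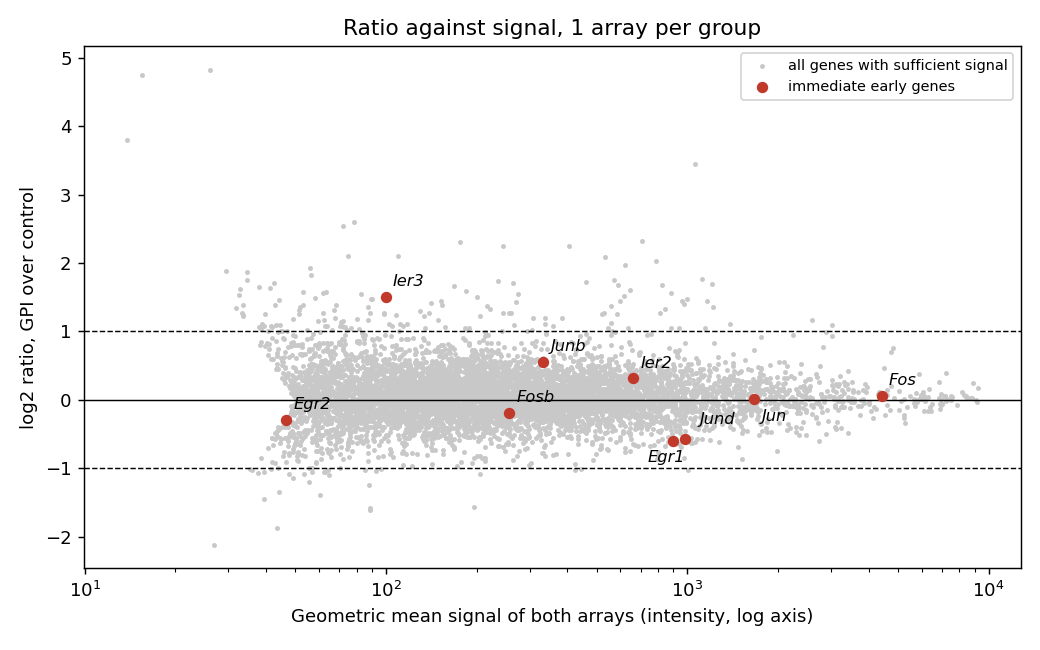
Log2 ratio of GPI-immunized over control signal (vertical axis) against the geometric mean signal of both arrays (horizontal log axis), each point a gene and each group a single array, with dashed lines at 2-fold. Ier3 lies above the upper line at 1.51, Jund (-0.57) and Egr1 (-0.60) lie at the lower edge of the cloud, and Fos and Jun lie near 0.

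Genes around these factors were described by lists of partners, regulators and targets. Of 17 other AP-1 and bZIP partners, 9 had sufficient signal, 0 were at least 2-fold higher or lower, and 6 had ratios above 1 (median log2 ratio 0.24). The highest was Jdp2, a repressor that dimerizes with Jun, with signals of 66.1 and 122.8, a ratio of 1.86 (its other probe set was at background level). Atf3, a stress-induced bZIP factor, followed with signals of 58.2 and 92.9, a ratio of 1.60. Batf3, needed for a dendritic cell lineage, had a ratio of 1.46 and Atf5 one of 1.28.

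Other immediate early genes were mixed in direction. Of 36 listed, 23 had sufficient signal, of which 1 was at least 2-fold higher, 0 were lower and 22 lay between (median log2 ratio -0.086). The higher gene was Nfil3, a bZIP factor of innate lymphocytes and myeloid cells, with signals of 21.5 and 51.6, a ratio of 2.40, of which only the second was sufficient. Gadd45b, a stress sensor upstream of p38, had a ratio of 1.56, with 1.88 in the next brightest of its 3 probe sets and 1.01 in the dimmest. Nr4a1, an orphan nuclear receptor that reports antigen receptor signals, had signals of 256.8 and 359.3, a ratio of 1.40. Zfp36l1, which destabilizes AU-rich mRNAs, had signals of 2081.6 and 1517.1, a ratio of 0.729.

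Among inducible NF-κB feedback and cytokine genes, 16 of 20 had sufficient signal and 3 were at least 2-fold higher, 0 lower (median log2 ratio 0.046). These were the neutrophil chemokine Cxcl2 (signals of 53.0 and 228.0, ratio 4.30), the cytokine Il1b (708.3 and 1920.2, ratio 2.71) and the cytokine signalling inhibitor Socs3 (140.0 and 351.9, ratio 2.51). Ptgs2, cyclooxygenase-2, had a ratio of 1.76. Over the lists of partners, regulators, targets and cell types, Atf5, Nfil3, Ptgs2, Tnfaip3, Dok2, Dusp7, Cdkn1a, Bag3, Cxcr2 and Fcgr1 reached the signal limit on the GPI-immunized array alone, so that their ratios above 1 were fixed by that limit. Egr2, Ccl4 and Txk reached the limit on the control array alone, so that their ratios below 1 were likewise fixed by it. The NF-κB inhibitor Nfkbia, a rapid NF-κB target, had signals of 2413.2 and 2353.2, a ratio of 0.975. It was named after its value was seen.

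In the upstream machinery 0 genes passed the 2-fold rule, which called only 2.23% of all genes higher and 0.445% lower. Serum response factor, its ternary complex partners and CREB-type factors had 7 of 13 genes with sufficient signal, 0 at least 2-fold higher or lower, and a median log2 ratio of -0.19. The 4 furthest from a ratio of 1 were the CREB gene Creb1 (1.52), the co-activators Crebbp (0.760) and Mrtfa (1.32) and the ternary complex factor Elk4 (0.763). The other probe sets of Elk4 reached up to 1.69. Creb1 was read by 4 probe sets, of which the brightest had the highest ratio, and the lowest ratio was below 1. Of 24 MAP kinases and their upstream kinases, 16 had sufficient signal and 0 were at least 2-fold higher or lower (median log2 ratio -0.058), with the JNK1 gene Mapk8 at 0.741 (up to 1.05 in its other probe sets), Map3k1 at 0.749, the ERK5 gene Mapk7 at 1.33 and Map2k4 at 1.23.

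Of 18 phosphatases and feedback inhibitors of MAP kinases, 10 had sufficient signal and 0 passed the 2-fold rule in either direction (median log2 ratio -0.007). Dusp2, an ERK phosphatase of activated lymphocytes, had signals of 378.2 and 247.5, a ratio of 0.654. Dok2, an adaptor that restrains Ras, had a ratio of 1.65. Dusp3 had a ratio of 1.37 (0.569 in its other probe set) and Dusp7 one of 1.32 (down to 0.841 in its other probe sets). Of 11 genes of AP-1 degradation and repression, 8 had sufficient signal and 0 passed the rule (median log2 ratio 0.093). Beside Jdp2 they included Cops5, a co-activator of Jun, at 1.41 (its other probe set was at background level), the ubiquitin ligase subunit Fbxw7 at 0.754 (1.07 in its other probe set) and the ligase Itch at 1.29.

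The medians of the AP-1 and EGR target lists lay on opposite sides of 0. Of 21 AP-1 target genes, 11 had sufficient signal, with a median log2 ratio of 0.58. Ratios above 1 were found for 8 of the 11, against 57.5% of all genes. At least 2-fold higher was 1 gene, a rule that called 2.23% of all genes. The gelatinase Mmp9 had signals of 146.2 and 477.3, a ratio of 3.26. The adhesion receptor Cd44 had a ratio of 1.76, heme oxygenase Hmox1 1.73 and the urokinase receptor Plaur 1.65. Of 18 EGR co-repressors and targets, 12 had sufficient signal, 4 had ratios above 1 and 0 were at least 2-fold higher or lower (median log2 ratio -0.11), with the cell cycle inhibitors Cdkn1b at 0.690 and Cdkn1a at 1.54, the diacylglycerol kinase Dgka at 0.728, and Itch. With 1 array per group, the difference between the lists was not tested. Mmp9 is a neutrophil gene as well, and Itch, Jdp2 and Id3 stood in more than 1 list.

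**Figure D3:**
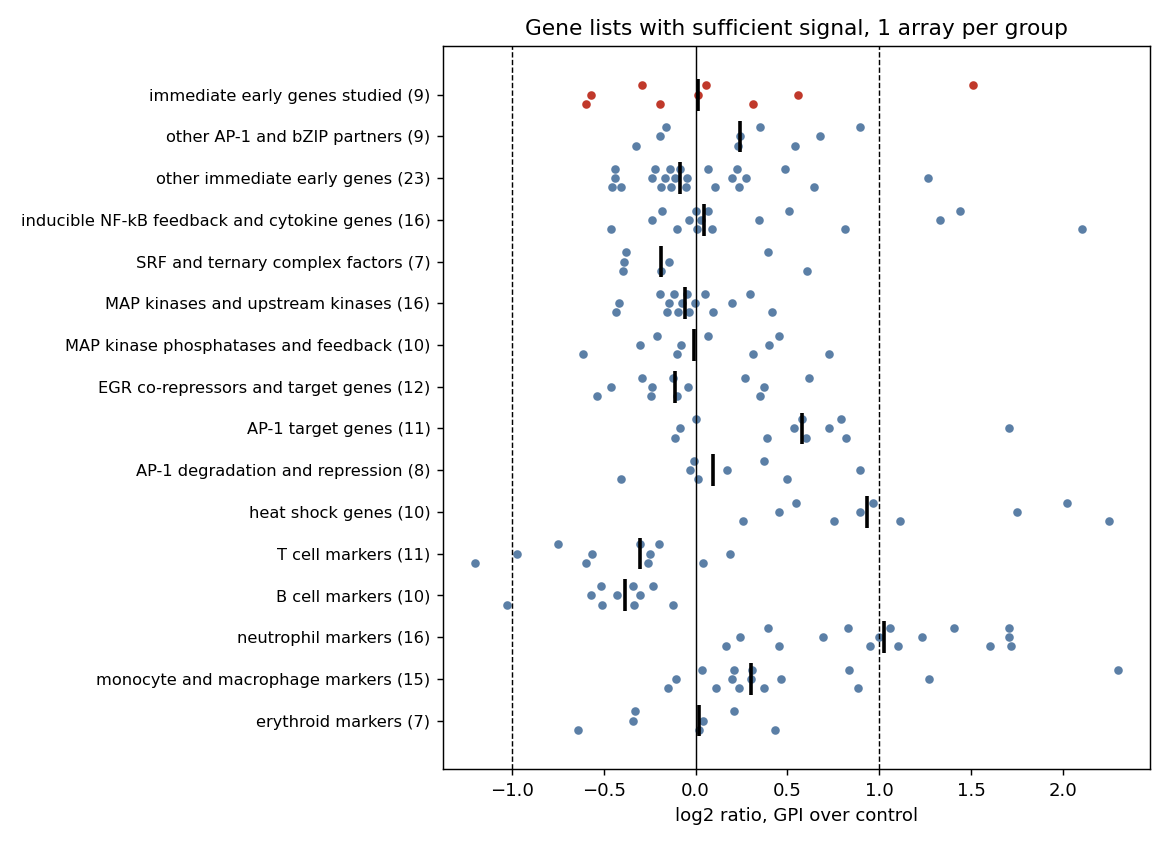
Log2 ratio of GPI-immunized over control signal (horizontal axis) for genes with sufficient signal in each list (number of genes in brackets), 1 point per gene from 1 array per group, black bars at list medians and dashed lines at 2-fold. The immediate early genes studied spread around 0 with Ier3 alone beyond 2-fold, while the bars of the heat shock (0.93) and neutrophil (1.03) lists lie to the right and those of the T and B cell lists (-0.30 and -0.38) to the left.

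Markers of cell types differed between the same 2 arrays. All 16 neutrophil markers with sufficient signal had ratios above 1 and 8 passed the 2-fold rule upward (median log2 ratio 1.03), from S100a9 at 1.12 to Mmp8 at 3.28, with Ctsg at 3.04. Cxcr2, at 3.26 (23.5 and 76.6), is counted among them and was sufficient only in GPI-immunized splenocytes. Of 15 monocyte and macrophage markers with sufficient signal, 13 had ratios above 1 and 2 were at least 2-fold higher (median 0.30). These were the lipopolysaccharide co-receptor Cd14 at 4.93 and the integrin Itgam (CD11b) at 2.41, followed by Fcgr1 at 1.85 and Ccr2 at 1.78.

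Lymphocyte markers mostly had ratios below 1. All 10 B cell markers with sufficient signal had ratios below 1, 1 of them at least 2-fold lower (median log2 ratio -0.38). They were lowest for Fcer2a (0.491), followed by the kinase Blk (0.674), the antigen receptor subunit Cd79a (0.701) and Cd22 (0.703), next to 0.675 for Jund and 0.661 for Egr1. Of 11 T cell markers with sufficient signal, 9 had ratios below 1 and 1 was at least 2-fold lower (median -0.30). The lowest were Txk at 0.436, Cd3e at 0.509, Cd4 at 0.594 and Lat at 0.661. Txk (84.5 and 36.8), the 1 called lower, is counted among the 9 and was sufficient only in control splenocytes, where it was high. The 7 erythroid markers with sufficient signal had a median of 0.020 and 0 passed the 2-fold rule. Epb42 was lowest at 0.641 (0.984 in its other probe set) and Gata1 highest at 1.35. Slc4a1 (0.790, and up to 1.05 in its other probe sets) and Alas2 (0.796) lay between. The part of these cell types in the ratios of Ier3, Junb, Jund and Egr1 was not tested.

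Heat shock genes, which respond to stress of cells as immediate early genes do, were set beside them. All 10 with sufficient signal had ratios above 1 and 4 passed the 2-fold rule upward (median log2 ratio 0.93), namely Hspa1a (4.75), Hspa1b (4.07), Hsph1 (3.37) and Dnaja1 (2.16). Hspa1a and Hspa1b are near-identical copies whose signals may be shared. One of the 10, Bag3 (33.7 and 62.7), was sufficient only in GPI-immunized splenocytes, where it was high. On the same arrays the ratios were 2.84 for Ier3, 1.60 for Atf3, 1.47 for Junb, 1.24 for Ier2, 1.04 for Fos, 1.01 for Jun, 0.876 for Fosb, 0.818 for Egr2, 0.675 for Jund and 0.661 for Egr1. The part of cell stress in these ratios was not tested. The ratio of 3′ to 5′ control signal, often read as a sign of RNA quality, was 1.49 in control and 1.42 in GPI-immunized splenocytes for Actb, and 0.946 and 0.839 for Gapdh.

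**Figure D4:**
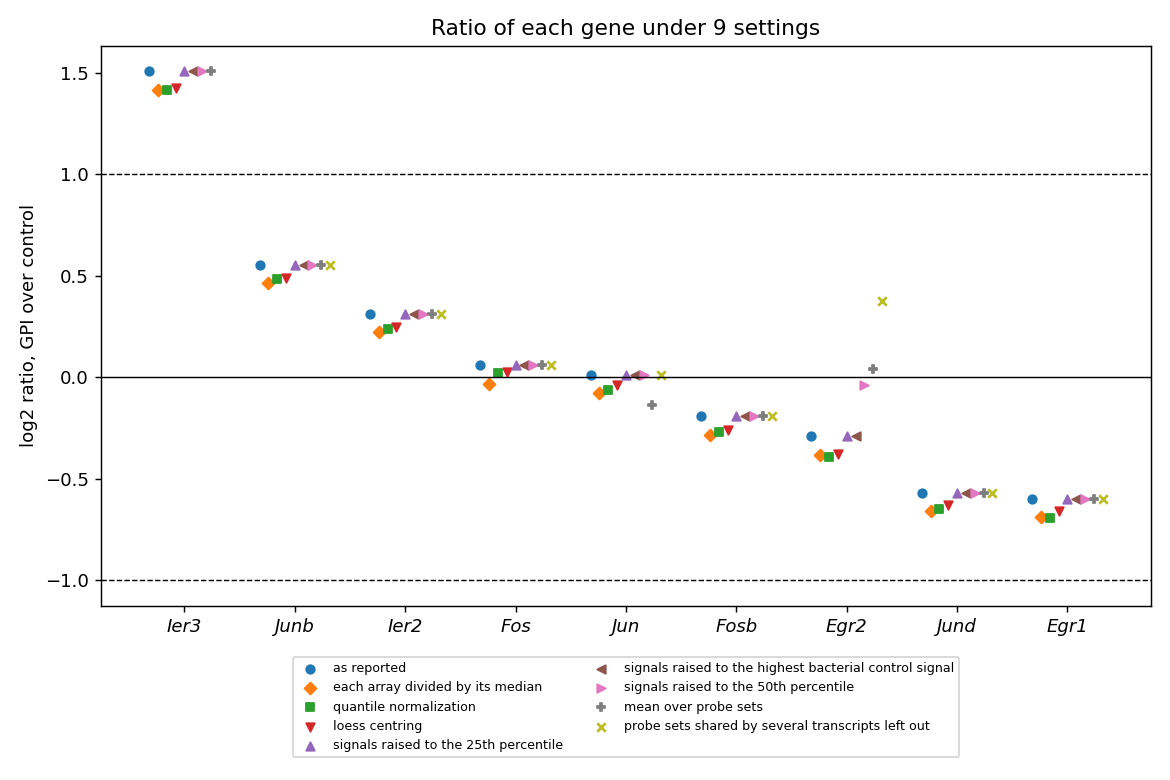
Log2 ratio of GPI-immunized over control signal (vertical axis) of the 9 genes with sufficient signal under the reported setting and 8 alternatives (symbols), 1 array per group, dashed lines at 2-fold. Ier3 stays above the upper line and Junb and Ier2 above 0, Jund and Egr1 stay below 0 and above the lower line, Fos and Jun cross 0 with the scaling, and Egr2 crosses it with the choice of probe set.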

How the data were processed

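Splenocyte RNA of GPI-immunized and control-immunized DBA/1 mice was hybridized to 1 Affymetrix mouse GeneChip each. The authors deposited 1 signal per probe set, an intensity on a linear scale, made with what the paper calls gene expression software. Probe summarization, array scaling and detection calls are described in none of these sources, so a ratio may hold a difference in scaling. Labelling is described as that of cDNA with a WT kit in the sample labels and as that of cRNA in the paper. The column medians were 48.65 and 51.8. Groups were taken from the sample titles.

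Of 22626 probe sets besides 64 control probe sets, 20380 had 1 gene symbol in the platform annotation, 691 had several and 1555 are unnamed there. The symbols of all 10 genes were matched by gene ID in RefSeq (GRCm38.p6), which also gave the promoter sequences. The 3 signals of 0 were set to 0.1 before taking log2. A gene was counted at a ratio of at least 2 or at most 0.5. No test was made with 1 array per group, whose number limits the precision. The genes and lists were chosen with earlier results of these data known, and the promoters shown and motifs after the ratios were seen. Named genes are the 10 studied and, from each list, up to 4 genes with sufficient signal furthest from a ratio of 1. Further genes were named after their values were seen. Older symbols were matched through RefSeq synonyms. The steps were tested on simulated data. Alternatives were dividing by the median, quantile normalization, loess centring (span 0.3), floors on low signals, means over probe sets, omission of shared probe sets (suffix _s_at, _x_at or _a_at), a 3-fold threshold and other filters. Python 3.11.15, numpy 2.4.6, pandas 2.3.3, statsmodels 0.14.6 and matplotlib 3.10.9 were used.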

Additional observations from a re-analysis of the deposited data

How the results depend on the processing

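No paired analysis was possible because each group has 1 array, and for the same reason no replicate could be left out. Of 71 alternative values for the ratios of the 9 genes, 69 moved by less than the spread between probe sets (0.26 on the log2 scale). The exceptions were those of Egr2, 1.03 as the mean over its probe sets and 1.30 without the probe sets shared by several transcripts. Ier3 lay between 2.67 and 2.84 in the 7 alternatives that hold it. The count of these genes at least 2-fold higher went from 1 to 0 at 3-fold, with a 75th percentile filter (219.8), which Ier3 does not reach, and without shared probe sets, which leaves out the only one of Ier3. The count of lower genes was 0 in all alternatives. The median log2 ratio of the genes ran from -0.077 (arrays divided by their medians, where all genes had -0.035) to 0.036 (no filter). Over all genes, 155 higher and 31 lower became 35 and 3 at 3-fold, 70 and 5 under that filter, and 1266 and 1105 without a filter. The lower count was 47 after division by the median and after quantile normalization, and 11 with a floor at the 50th percentile. After division by the median the higher count was 111. Signal near background limits Egr2 and Egr3.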
